A study of Caenorhabditis elegans with 6 samples.

Results

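The precuticle is a temporary matrix that the nematode epidermis lays down before each new cuticle is built, and 8 genes of this matrix and of molting are described here. They are noah-1, noah-2, fbn-1, lpr-3, let-653, mlt-10, mlt-11 and mltn-1, found by their symbols as 8 of the 20189 protein-coding genes in the table of ribosome footprint counts. The genes were chosen by their names with their footprint change under cycloheximide already known, so their change is given as a description, and no call on it is read as support. All 8 passed the filter on low counts, as did 10632 genes in all. Of these, fbn-1, let-653 and mltn-1 had fewer than 10 reads in every untreated library and passed only through the treated libraries, so for them a difference followed from the filter.

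Ribosome profiling counts the short stretches of mRNA that ribosomes shield, here over coding sequence in whole Caenorhabditis elegans hermaphrodites. All animals were labelled L4, the last larval stage, were kept at 23 °C, and carried rpl-36A(P55Q) over mIn1, a balancer inversion of chromosome II. The change lies in a ribosomal protein of the large subunit, at a residue known to set sensitivity to cycloheximide (CHX), an inhibitor of translation elongation. Both groups were started from synchronised eggs. The no CHX group (3 libraries) grew without the drug for 2 days, and the CHX group (3 libraries) grew on plates with 500 µg/ml CHX for 3 days, so treatment and culture time cannot be told apart. The labels give no hour within L4, and nothing in them says whether replicates were separate cultures. Every p-value here reflects library-to-library spread, which may be technical.

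Worms grow through a series of larval stages, and at the end of each a new cuticle is made under the old one, which is then shed. The precuticle is built first from proteins with zona pellucida (ZP) domains, from lipocalins and from proteins with leucine-rich repeats, and most of it is removed as collagens take its place. Transcripts of many such genes are known to rise and fall once in every larval stage, so their level depends on how far an animal is from its next molt.

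Totals ran from 1601009 to 1901815 reads per library, and no libraries were near-duplicates. On the main axis of a principal component analysis (73.7% of variance) CHX and no CHX libraries stood apart. Of the 10632 genes tested, 22.2% were called higher with CHX and 20% lower (quasi-likelihood test of edgeR, adjusted p under 0.05 by Benjamini-Hochberg), 42.2% in all, with a median log2 fold change of 0.03. The mutated gene rpl-36.A had 932 ± 66.4 CPM (counts scaled to library size with TMM factors) without and 658 ± 67.4 CPM with CHX (SD, n = 3 each), and the counts do not tell its copies apart. The 5 epidermal markers were all detected, and their summed level was 293 to 336 CPM without CHX and 322 to 394 CPM with it. None of the 5 was called in either direction with edgeR, and 2 had an unadjusted p under 0.05. Their part in the changes below was not tested. In whole animals a change in the number of cells and a change in footprints per cell cannot be told apart. Footprint counts alone also cannot tell a change in mRNA level from a change in ribosomes per mRNA. Markers of other tissues moved as well. All 3 pharynx markers rose (summed 359 to 433 CPM without and 526 to 704 CPM with CHX), 2 of 3 neuronal markers rose, 2 of 3 body wall muscle markers fell, and of 3 germ line markers 2 fell and 1 rose. Seam markers summed to 16.5 to 29.7 CPM without and 31.9 to 45.4 CPM with CHX. Neither of the 2 tested, grd-10 and wrt-2, was called by edgeR, and both had an unadjusted p under 0.05. However, grd-10 had 8 reads in every untreated library and passed the filter only through the treated libraries. Its difference thus followed from the filter and is not read as support. Of 3 intestine markers, 1 fell.

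The 8 genes fell into 3 patterns. Footprints of fbn-1, let-653 and mltn-1 were about 4 to 7 times as frequent with CHX. Those of noah-1, noah-2, lpr-3 and mlt-11 were higher on average by less than 2-fold, but differed up to 5.55-fold between libraries of 1 group. Footprints of mlt-10 were lower on average. The median log2 fold change was 0.91. In the fit over all genes 3 of the 8 were called higher and 0 lower by edgeR, by DESeq2 and at an unadjusted p under 0.05, and because the choice of genes used this contrast, nothing is read from those counts. Together the 8 genes took 587, 1239 and 1009 reads in no CHX replicates 1 to 3, or 0.0358%, 0.0693% and 0.0548% of all reads. In the treated libraries they took 1954, 997 and 1144 reads, or 0.112%, 0.0623% and 0.0602%. The summed share was lowest in no CHX replicate 1 and highest in CHX replicate 1, and the groups overlapped.

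**Figure D1:**
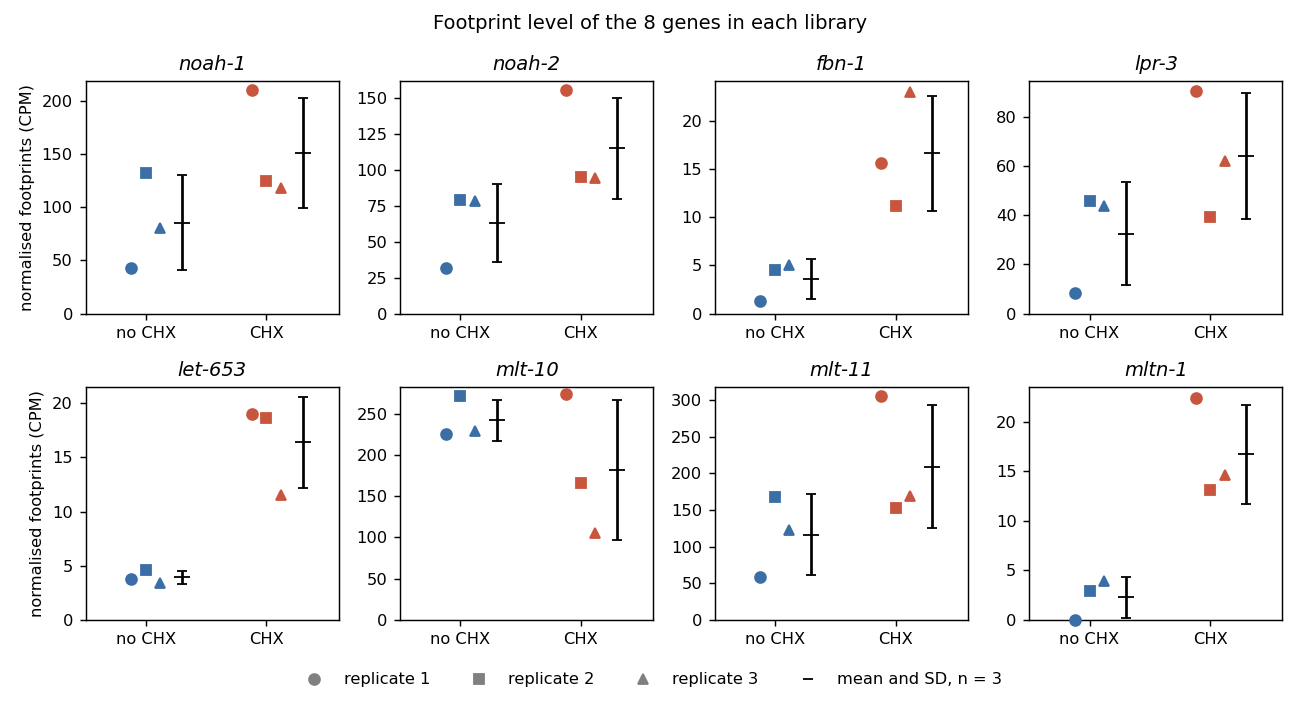
Footprint level of each of the 8 genes, in CPM (linear axis from 0), for the 3 no CHX libraries (blue) and the 3 CHX libraries (red). Symbols mark replicate numbers, and black bars give the mean and SD over 3 libraries. For fbn-1, let-653, mltn-1 and noah-2 all CHX libraries lie above all no CHX libraries, as in 27.7% of all tested genes. The other 4 genes overlap. For fbn-1, let-653 and mltn-1 the separation followed from the filter on low counts.

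Among the ZP-domain matrix genes, noah-1 and noah-2 encode large related proteins of the epidermal precuticle, named for their likeness to a matrix protein of fly sensory organs. The noah-1 gene (WBGene00016422, transcript C34G6.6b.1, WBcel235 chromosome I, 5874433 to 5878954, minus strand) stood at 43.1, 132 and 80.8 CPM in the untreated libraries, in order of replicate number. Treated libraries 1 to 3 gave 210, 125 and 118 CPM. The highest no CHX library stood above the lower CHX libraries, so the groups overlapped. Group means of 85.3 ± 44.6 and 151 ± 51.3 CPM (SD, n = 3 each) correspond to a fitted log2 fold change of 0.81 (SE 0.48).

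Values of noah-2 (WBGene00009926, F52B11.3.1, chromosome IV, 14091254 to 14096617, plus strand) were 31.7, 79.4 and 78.6 CPM without CHX. With CHX they were 156, 95.3 and 94.7 CPM. Here the groups did not overlap, as in 27.7% of all tested genes in this direction, but the nearest libraries were 79.4 and 94.7 CPM. The log2 fold change was 0.85 (SE 0.41). Leaving out single libraries moved the value between 0.51 and 1.00 for noah-2 and between 0.47 and 1.22 for noah-1, always above 0. With these deeper counts, pooled reads gave CHX to no CHX ratios of 1.82 (95% interval 1.62 to 2.05) for noah-1 and 1.87 (1.64 to 2.15) for noah-2, intervals that cover counting error and leave out the larger spread between libraries. Replicate 1 was the lowest library of the no CHX group and the highest of the CHX group for both noah genes.

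The gene fbn-1 encodes a fibrillin-like protein with a ZP domain that helps anchor the epidermis and pharynx to the matrix outside them. It lies on chromosome III (WBGene00022816, ZK783.1k.1, 7625376 to 7641053, plus strand), and its last bases overlap upp-1 on the opposite strand. It was weakly covered, with 2, 8 and 9 reads in untreated animals and 28, 18 and 44 reads under treatment. Every CHX library exceeded every no CHX library, as in 27.7% of all tested genes, and for fbn-1 this followed from the filter. In CPM the means were 3.63 ± 2.06 and 16.6 ± 5.97 (SD, n = 3 each), with a log2 fold change of 2.16 (SE 0.40). The pooled reads give a ratio of 4.76 (exact Clopper-Pearson 95% interval 2.88 to 8.27), which covers counting error only. Whether the count used strand is not given in the sources used here, so reads in the stretch shared with upp-1 cannot be assigned. The pharynx markers, which moved the same way, were given above, and their part in the fbn-1 values was not tested.

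The ZP-domain gene let-653 encodes a mucin-like protein that lines narrow epithelial tubes such as the excretory duct and shapes the vulval lumen. Its coordinates are chromosome IV, 11885530 to 11891081, plus strand (WBGene00002827, C29E6.1a.2). Its libraries held 6, 8 and 6 reads without CHX and 34, 30 and 22 with it. The groups did not overlap, which followed from the filter as for fbn-1. The no CHX libraries lay close together at 3.81, 4.57 and 3.37 CPM. The means were 3.92 ± 0.610 and 16.4 ± 4.23 CPM (SD, n = 3 each), with a log2 fold change of 2.04 (SE 0.34). Pooled reads gave a ratio of 4.32 (95% interval 2.63 to 7.42), which covers counting error only and is not read as support. The 5 markers of the vulva and duct summed to 12.3 to 14.3 CPM without and 18.8 to 25.7 CPM with CHX. Of the 2 tested, cdh-3 had 14 and 36 reads over the groups (log2 1.29, SE 0.40). It had fewer than 10 reads in every untreated library and passed the filter only through the treated libraries. Its difference thus followed from the filter. The other, lin-11, was at 0.72 and was not called. Of the untested markers, aff-1 had 20 reads without and 30 with CHX, and its groups overlapped. Reads were 2 in all for egl-17 and 0 to 2 in each library for lin-48. The part of these markers in the let-653 values was not tested.

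The lipocalin gene lpr-3 encodes a secreted carrier-type protein of the precuticle that keeps narrow tubes open and the cuticle intact. It lies on chromosome X (WBGene00012261, W04G3.8.1, 11057401 to 11059794, plus strand). Its footprint level was 8.25, 45.7 and 43.8 CPM without CHX and 90.5, 39.2 and 62.3 CPM with it. The lowest and highest libraries of the no CHX group differed 5.55-fold, and CHX replicate 2 lay below no CHX replicates 2 and 3. The log2 fold change of 0.96 had an SE of 0.63. Leaving out single libraries gave values from 0.49 to 1.22.

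The mlt and mltn genes differed among themselves in the direction of their means. The gene mlt-11 encodes a secreted protein with Kunitz-type protease inhibitor domains that is needed to complete the molt (WBGene00012186, W01F3.3b.1, chromosome V, 20667211 to 20678513, plus strand). Its level was 58.4, 168 and 122 CPM without CHX and 305, 153 and 169 CPM with it. The groups overlapped, since no CHX replicate 2 stood above CHX replicate 2. The means were 116 ± 55.1 and 209 ± 83.7 CPM (SD, n = 3 each), and the log2 fold change was 0.84 (SE 0.50). Leaving out single libraries gave values from 0.46 to 1.15. The annotation in RefSeq lists 8 transcripts of mlt-11 and 1 of mlt-10, and the deposited counts give 1 value for each gene.

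The gene mlt-10 is expressed in the epidermis and needed for molting (WBGene00015646, C09E8.3.1, chromosome II, 546705 to 552031, plus strand). It was the 1 gene of the 8 with a lower mean in the CHX group. Its level was 226, 271 and 228 CPM without CHX, which is a narrow range, and 273, 166 and 105 CPM with it. CHX replicate 1 alone reached the no CHX range and exceeded it. Group means were 242 ± 25.3 and 182 ± 85.1 CPM (SD, n = 3 each), and the fitted log2 value was -0.41 (SE 0.37). Without CHX replicate 1 the value was -0.84 (SE 0.17), and without CHX replicate 3 it was -0.13. The neighbouring gene T27A1.3 overlaps the start of mlt-10 on the same strand and had 0 reads in the 6 libraries.

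The gene mltn-1 is named as a relative of mlt-10 (WBGene00009311, F32A11.7.1, chromosome II, 13139465 to 13145225, minus strand). It had 0, 5 and 7 reads without CHX and 40, 21 and 28 with it. The 0 in no CHX replicate 1 allows up to 3 reads, or 1.83 CPM in that library before TMM scaling. All CHX libraries stood above all no CHX libraries, which followed from the filter as for fbn-1 and let-653. The means were 2.26 ± 2.03 and 16.7 ± 4.96 CPM (SD, n = 3 each). The pooled reads gave a ratio of 7.45 (95% interval 4.06 to 14.97), which covers counting error only and is not read as support. Its log2 fold change was 2.80 (SE 0.49), opposite in sign to that of mlt-10, and the value without no CHX replicate 1 was 2.24. Reads shared with other genes of the mlt-10 family cannot be assigned, since the handling of reads with several matches is not given in the sources used here.

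The library numbered 1 in each group held the extreme value for most of these genes. No CHX replicate 1 was the lowest library of its group for 7 of the 8 genes, let-653 being the exception, and for 33.0% of all tested genes. For mlt-10 the margin was small, at 226 CPM against 228 CPM in no CHX replicate 3. CHX replicate 1 was the highest of its group for 7 of 8, fbn-1 being the exception, and for 30.7% of all tested genes. Both held for 6 of 8, mlt-10 among them, against 11.7% of all tested genes. The labels do not say whether libraries of the same number were handled together. Set side by side, the replicate 1 libraries alone gave CHX to no CHX ratios of 4.87 for noah-1 and 4.92 for noah-2. The ratios were 10.98 for lpr-3 and 5.23 for mlt-11. Replicates 2 and 3 gave ratios of their means of 1.14, 1.20, 1.13 and 1.11 for these genes. In the same replicates the ratio of means was 3.56 for fbn-1, 3.80 for let-653, 4.09 for mltn-1 and 0.544 for mlt-10.

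Both replicate 1 libraries were also left out together, an alternative chosen after seeing the data. The log2 fold change dropped from 2.16 to 1.84 for fbn-1, from 2.04 to 1.89 for let-653 and from 2.80 to 2.01 for mltn-1. Those of noah-1, noah-2, lpr-3 and mlt-11 dropped as well, from 0.81, 0.85, 0.96 and 0.84 to 0.19, 0.27, 0.20 and 0.15. In that comparison mlt-10 was at -0.89 (SE 0.20). The median of the 8 moved from 0.91 to 0.23.

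**Figure D2:**
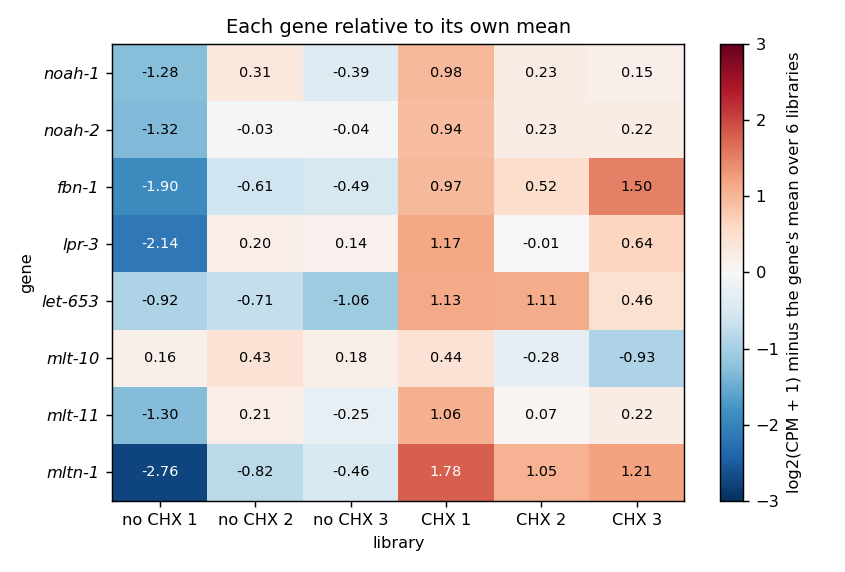
Level of each gene (rows) in each library (columns) as log2(CPM + 1) minus the gene's mean over the 6 libraries, with the value printed in each cell and coloured from blue (below the mean) to red (above). The no CHX 1 column holds the lowest value of 6 genes, from -1.28 for noah-1 to -2.76 for mltn-1, while let-653 is lowest in no CHX 3 and mlt-10 in CHX 3.

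Replicates varied more for most of these genes than for other genes of similar level. The coefficient of variation (CV, SD over mean) between no CHX libraries was 52.3% for noah-1, 43.2% for noah-2, 64.8% for lpr-3 and 47.4% for mlt-11. The 500 tested genes nearest to each in mean CPM over all 6 libraries had a median CV of 9.001%, 9.999%, 12.2% and 8.38% in that group. For these 4 genes, 99.0% to 99.8% of the 500 neighbours varied less without CHX, and 97.8% to 98.0% varied less with CHX. The gene mlt-10 was steady without CHX (CV 10.5%, above 69.6% of its neighbours) and variable with it (46.8%, above 99.2%). For fbn-1 the CVs were 56.7% and 35.9%, above 94.8% and 83.4% of its neighbours, and for mltn-1 they were 89.8% and 29.7%, above 99.4% and 69.8%, both at few reads and, without CHX, at a lower level than the neighbours' shared mean over all libraries. The gene let-653 was ordinary in both groups (15.6% and 25.8%, above 23.6% and 61.8% of its neighbours).

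**Figure D3:**
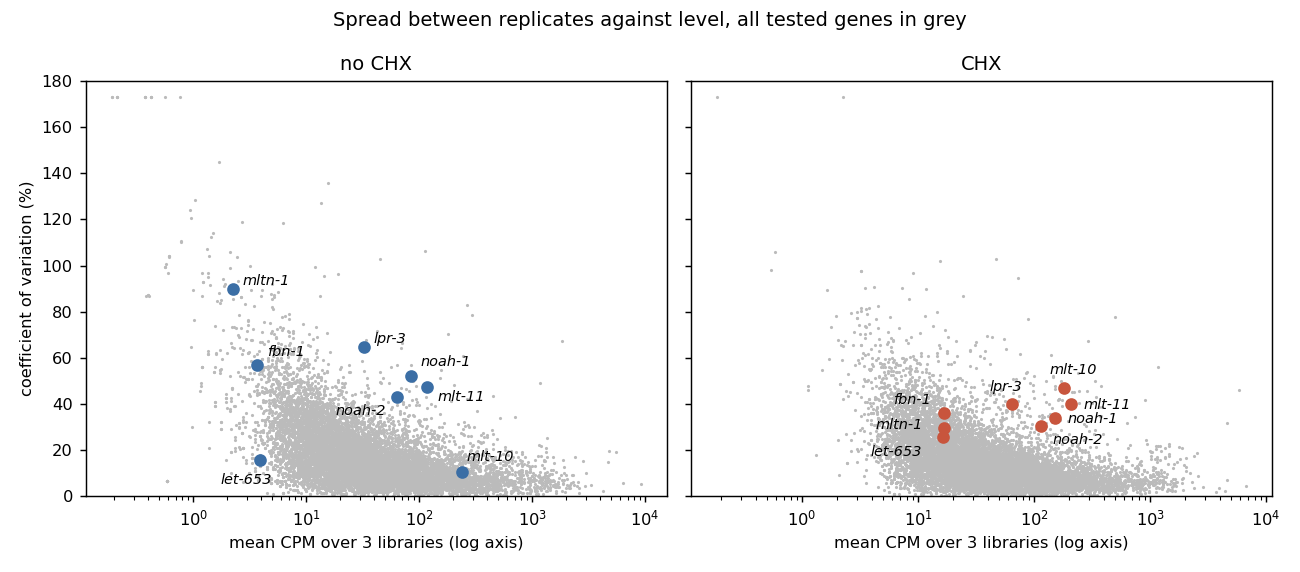
Coefficient of variation between the 3 libraries of a group (percent) against mean CPM (log axis), without CHX on the left and with CHX on the right, for all tested genes (grey) and the 8 genes (coloured). On the left lpr-3, noah-1, mlt-11 and noah-2 lie at 43.2% to 64.8%, above the bulk of genes of like level, while mlt-10 lies at 10.5% and let-653 at 15.6%.

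The pair of mlt-11 and noah-1 kept a similar proportion while their levels changed. In reads, mlt-11 to noah-1 stood at 1.35, 1.27 and 1.51 in no CHX replicates 1 to 3 and at 1.45, 1.225 and 1.43 in CHX replicates 1 to 3. That ratio had means of 1.38 ± 0.123 and 1.37 ± 0.125 (SD, n = 3 each), although mlt-11 itself ranged from 58.4 to 305 CPM. The ratio of noah-1 to noah-2 was less steady without CHX, at 1.36, 1.66 and 1.03 in replicates 1 to 3. Its means were 1.35 ± 0.32 without and 1.30 ± 0.050 with CHX (SD, n = 3 each). They differed by less than the spread in the no CHX group. The ratio of mlt-10 to noah-1 behaved otherwise, at 5.24, 2.05 and 2.83 without CHX and 1.30, 1.335 and 0.889 with it. Both genes were chosen with this contrast known, so the ratio is given as a description. These ratios compare libraries and not the levels of different genes, as coding lengths were not used here.

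Pearson correlations of log2(CPM + 1) over the 6 libraries, which share the group difference, ran from 0.57 to 0.99 for the 21 pairs without mlt-10 (median 0.87). The 7 pairs with mlt-10 had values from -0.55 to 0.04. After each group's mean was taken out, the highest values were 0.98 for noah-1 with mlt-11, 0.97 for lpr-3 with mltn-1 and 0.97 for noah-2 with mltn-1. For mlt-10 the closest within groups was let-653 (0.85), and the pair of fbn-1 and let-653 was at -0.40. With 6 points, high values arise for many pairs of genes, and they are given as a description.

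Genes with the most similar pattern over the 6 libraries were sought among 9083 genes with at least 10 CPM on average. The lipocalin-related gene lpr-4 came first for lpr-3 (r = 0.99), a gene of the same family that lay on the list of other precuticle genes. The cuticle collagen gene lon-3 and the transporter gene snf-1 came first for mlt-10 (0.99 and 0.985). C09F9.2 came first for both noah-1 and mlt-11 (0.99 each), followed by R07E3.6 for noah-1 and T26C5.2 for mlt-11, and T26C5.2 and M03B6.3 led for noah-2. The first 2 genes were hda-6 and nlp-77 for fbn-1, E04F6.9 and cpr-3 for let-653, and Y116A8C.9 and lfi-1 for mltn-1. In the ranking for mlt-11, noah-1 had rank 3 of 9082. The best rank of another member was 4 for noah-1, 15 for lpr-3, 17 for noah-2 and 89 for mltn-1. It was 931 for fbn-1, 1998 for let-653 and 4203 for mlt-10. As mltn-1 lay below 10 CPM on average, it was not itself ranked.

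Other genes of the matrix and of molting, on lists made with the results of these data known, went both ways. Of 12 other precuticle and apical matrix genes tested (14 listed), 4 were higher and 3 lower with CHX, with a median log2 fold change of 0.89 against 0.03 over all tested genes. That median was 0.40 without CHX replicate 2, 0.45 without both replicate 1 libraries and 0.50 with no low-count filter. The largest rise was that of egg-6, a gene of an apical matrix protein with leucine-rich repeats, with 19.6 ± 5.34 CPM without and 185 ± 17.6 CPM under treatment (SD, n = 3 each; log2 3.22, SE 0.16, edgeR adjusted p = 1.4e-10). The lipocalin-related gene lpr-6 rose by 1.28 (SE 0.35, edgeR adjusted p = 0.00985). The lipocalin-related gene lpr-7 fell (-1.19, SE 0.23, edgeR adjusted p = 4.6e-04), as did dex-1, which encodes a matrix protein of sensory and seam epithelia (-0.66, SE 0.21, edgeR adjusted p = 0.0214). The lpr-6 call ended without no CHX replicate 3 (1.15), when 2 genes of the list rose. The dex-1 call was lost when either replicate 1 library was omitted (-0.44 for the untreated, -0.61 for the treated) or when CHX replicate 2 was (-0.58), and without both replicate 1 libraries 2 genes rose.

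Of 10 cuticlin and cuticlin-like genes tested (35 listed, most with few reads), 1 rose and 4 fell, with a median of -0.23 (-0.42 without no CHX replicate 3, -0.097 without CHX replicate 2). Levels of the cuticlin gene cut-2 fell, at 516 ± 36.3 CPM without and 221 ± 31.5 CPM with CHX (SD, n = 3 each; -1.22, SE 0.11, edgeR adjusted p = 1.7e-07), and cutl-8 fell by 1.66. The riser cutl-16 (1.36) had fewer than 10 reads in every untreated library. It passed the filter only through the treated libraries, so its difference followed from the filter. It was not called without no CHX replicate 2 (1.20) or 3 (0.98) or with DESeq2. Without CHX replicate 2 there were 2 risers, and with no low-count filter 33 genes had a median of 0.19.

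Of 8 other mlt and mltn genes tested (20 listed, 18 in the table), 1 rose and none fell with edgeR, while 1 fell with DESeq2 and 1 had a lower level at an unadjusted p under 0.05. The riser was mltn-9, from 24.9 ± 8.94 to 46.3 ± 9.46 CPM (SD, n = 3 each; 0.89, SE 0.23, edgeR adjusted p = 0.00778). Its value was 0.52 and not called without both replicate 1 libraries. Omitting CHX replicate 2 or 3 gave 2 risers, and 1 gene was called lower without CHX replicate 1. The median of the list was 0.28. It was 0.18 on omitting untreated replicate 3, 0.063 on omitting treated replicate 1, and 0.034 with neither replicate 1 library.

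Among 17 molting proteases, protease inhibitors and cross-linking enzymes, 3 rose and 5 fell (median -0.11, and -0.028 without CHX replicate 2). The astacin metalloprotease genes nas-36 and nas-37, both needed to shed the old cuticle, went opposite ways. The level of nas-36 fell from 142 ± 1.04 to 79.2 ± 13.04 CPM (SD, n = 3 each; -0.84, SE 0.13, edgeR adjusted p = 5.0e-05). That of nas-37 rose from 32.6 ± 7.62 to 77.0 ± 28.4 CPM (SD, n = 3 each; 1.23, SE 0.34, edgeR adjusted p = 0.0253). The collagen prolyl 4-hydroxylase gene dpy-18 fell (-0.97, SE 0.14, edgeR adjusted p = 1.1e-04), and the tetraspanin gene tsp-15, whose product works with a dual oxidase in cuticle cross-linking, rose (0.77, SE 0.27, edgeR adjusted p = 0.0272). The nas-37 call ended without any no CHX library or without CHX replicate 1 (1.01 to 1.33), and that of tsp-15 on omitting untreated replicate 2 or 3 or treated replicate 1 or 3 (0.57 to 0.81). With DESeq2 or a block for the replicate number, tsp-15 was not called either. Omitting untreated replicate 2 left 0 risers, omitting untreated replicate 3 or treated replicate 1 left 1, and 3 genes fell on omitting replicate 2 of either group or untreated replicate 1.

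Of 17 genes that regulate molting or act in its endocytosis, 2 rose and 4 fell. Their median was 0.02 and lay on both sides of 0 under the alternatives. The nuclear receptor gene nhr-23, an ortholog of mammalian ROR receptors that drives molting genes, fell to 9.93 ± 1.39 from 19.97 ± 4.85 CPM (SD, n = 3 each; -0.99, SE 0.27, edgeR adjusted p = 0.0063). Its value was -0.71 and not called without both replicate 1 libraries. The NIMA-type kinase gene nekl-2 fell (-0.60, edgeR adjusted p = 0.0137), with -0.44 and no call without CHX replicate 1. The endocytic adaptor gene dab-1 rose (0.44, SE 0.11, edgeR adjusted p = 0.00422), and the Grainyhead factor gene grh-1 rose (0.57, SE 0.22, edgeR adjusted p = 0.0422). The grh-1 call ended without any 1 of 5 libraries, the exception being CHX replicate 3 (0.47 to 0.57). It was also lost with median-of-ratios size factors, no low-count filter, DESeq2 or a block for the replicate number. Risers numbered 1 without any no CHX library or CHX replicate 1, and fallers 2 on omitting replicate 2 of either group or treated replicate 3.

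Genes of the cuticle furrows and of the adult cuticle went both ways. Of 12 furrow and adult-stage genes tested (13 listed), 2 rose and 2 fell. Their median was 0.80, and 0.31 without both replicate 1 libraries. The furrow collagen gene dpy-8 rose from 13.3 ± 5.38 to 26.9 ± 9.34 CPM (SD, n = 3 each; 1.01, SE 0.32, edgeR adjusted p = 0.0206), and the adult collagen gene col-19 rose (0.70, SE 0.15, edgeR adjusted p = 0.0034). The collagen genes col-49 (-0.79, edgeR adjusted p = 0.00104) and col-38 (-0.65, edgeR adjusted p = 0.00152) fell. No CHX replicate 1 was lowest and CHX replicate 1 highest in their groups for 8 of these 12 genes. The same held for 6 of the 8 described genes, 6 of 12 other precuticle genes, 4 of 8 mlt and mltn genes, 8 of 17 regulators, 3 of 17 in the protease list and 1 of 10 cuticlins, against 11.7% of all tested genes. Of all listed genes, 4 were on more than 1 list, mlt-2, mlt-3 and mlt-7 among them, so the counts per list are not all separate. Whether these sets share a source of this spread was not tested. The dpy-8 call was lost on omitting replicate 1 or replicate 3 of either group (0.71 to 1.00). With CHX replicate 2 left out 5 genes rose, and 1 rose on omitting replicate 3 of either group or replicate 1 of the untreated group.

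**Figure D4:**
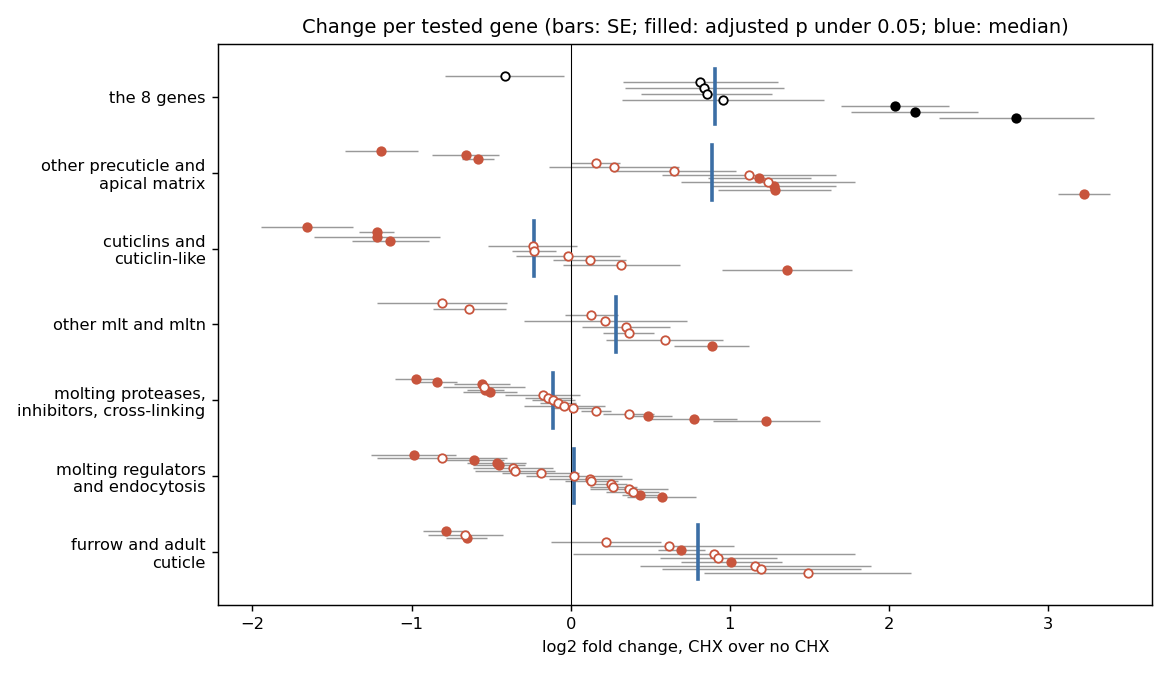
Log2 fold change of CHX over no CHX for each tested gene of the 8 (black) and of 6 related lists (red), with bars for the SE, filled points for an adjusted p under 0.05 and a blue line for each median. The filling is a description for the 8 genes, which were chosen with this contrast known. The 8 genes run from -0.41 for mlt-10 to 2.80 for mltn-1, and the lists hold genes on both sides of 0.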

How the data were processed

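Unnormalised counts of footprints over coding sequence were deposited for 6 libraries, with 1 line for every gene, per the file headers. Per the labels' protocols, ribosomes were pelleted through sucrose, and gel-purified footprint fragments went into a small RNA library kit. DESeq2 and the build WBcel235 are named in the submitters' processing notes. The aligner, the counter, its use of strand, and how reads with several matches or molecular identifiers were handled were not given in the sources used here. The deposited gene positions span introns and served for location only.

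Genes passing filterByExpr (minimum count 10) entered the quasi-likelihood fit of edgeR 4.0.16 (robust glmQLFit, then glmQLFTest, TMM scaling, R 4.3.3), with group as the only term and Benjamini-Hochberg adjustment over all tested genes. CPM values are TMM-normalised and errors are SDs over 3 libraries. The fit was tested on simulated data. Alternatives were median-of-ratios size factors, no filter, DESeq2 1.42.0, a block for the replicate number, omission of each library in turn and, added after seeing the data, leaving out both replicate 1 libraries. Library totals of 1601009 to 1901815 reads limit genes with few reads. The members and lists were chosen with earlier results of these data known. From each list up to 2 risers and 2 fallers with the largest called change and a mean of at least 2 CPM were named, and for each member the 2 genes with the highest Pearson r among those with a mean of at least 10 CPM. Sequences were not used here, so the planned search of promoter motifs was not run.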

Additional observations from a re-analysis of the deposited data

How the results depend on the processing

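The 8 genes were chosen with this contrast known, so their calls say nothing of stability. Their count called lower was 0 to 1 when single libraries were left out and 1 without both replicate 1 libraries. No pairing by replicate number showed in the counts. Same-numbered libraries deviated from their group means with correlations of -0.11, -0.08 and -0.08. Of the 6 libraries, 0 correlated best with its own number. Whether same-numbered libraries were handled together is not given in the labels. With the replicate block, 2124 genes rose and 1875 fell, and among the lists 1 regulator rose and 2 fell and 1 furrow or adult gene rose. With DESeq2, 0 cuticlins, 1 protease-list gene and 1 regulator rose, and 1 of the mlt and mltn list fell. With median-of-ratios factors 1 regulator rose and 1 mlt or mltn gene fell. Without the filter on low counts 2 mlt or mltn genes rose and 1 fell, and 5 furrow or adult genes rose. Leaving out single libraries gave 2 to 4 risers among other precuticle genes, 0 to 2 among cuticlins, 1 to 2 with 0 to 1 fallers among mlt and mltn genes, 0 to 3 with 3 to 5 fallers in the protease list, 1 to 3 with 2 to 5 fallers among regulators, and 1 to 5 among furrow and adult genes. Without both replicate 1 libraries (chosen after seeing the data) the risers were 2 precuticle genes, 0 mlt or mltn genes with 1 faller, 0 of the protease list, 1 regulator and 1 furrow or adult gene. No direction reversed among the named genes under these alternatives. The cause of these shifts was not tested. Depth limits fbn-1, let-653 and mltn-1, which rest on 12 to 20 reads over the no CHX libraries.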
